A study of Rattus norvegicus with 12 samples.

Results

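Oxidative phosphorylation is the last stage of respiration in mitochondria. Complexes I and II take electrons from fuel-derived carriers, complex III passes them to cytochrome c, complex IV hands them to oxygen, and complex V, the ATP synthase, uses the proton gradient built up on the way to make ATP. Most subunits are encoded in the nucleus and a smaller set in the mitochondrial genome. In blood, mature red cells have lost their mitochondria, while precursors of red cells, platelets and white cells carry them. Which cells the transcripts came from was not tested.

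The nuclear-encoded oxidative phosphorylation genes were taken from the gene table by symbol: every row starting with Ndufa, Ndufb, Ndufc, Ndufs, Ndufv, Uqcr, Cox4, Cox5, Cox6, Cox7, Cox8 or Atp5, and the 4 succinate dehydrogenase genes, without the assembly factors that start with Ndufaf. This gave 81 of 17337 genes. By the start of the symbol alone, 36 were assigned to complex I, 4 to complex II, 8 to complex III, 16 to complex IV and 17 to complex V. Genes of the mitochondrial genome were not analysed here. Both core and accessory subunits are among the 81, and a few are not regular subunits. Cox7a2l is known as a supercomplex factor, Atp5s and Atp5sl are known today as Dmac2l and Dmac2, and Cox6c-ps1 is a pseudogene. They stayed in the counts and sums of the complex assigned by their symbol.

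The libraries were made from RNA of whole blood, taken from adult males of the inbred Fischer (F344) and Wistar Kyoto (WKY) rat strains that were 70 to 90 days old at the start. All animals, controls included, were conditioned to fear a context, rested in the home cage for 4 weeks, were conditioned to fear again later and were decapitated 24 hours after that. Between the tests, the chronic restraint stress (CRS) animals were held in decapicone bags for 2 hours a day over 2 weeks, while the no stress (NS) animals stayed undisturbed; all groups thus share the fear conditioning. The 12 libraries form 4 groups of 3: F344 NS, F344 CRS, WKY NS and WKY CRS. Nothing in the labels says outright that each library is a different animal, and p-values then describe only how far these libraries scatter.

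Genes received 1691956 to 3846263 counts per library, but the 3 most abundant features took 88.9% to 94.6% of them, and 90796 to 419789 counts were left for all other genes. Levels are counts scaled to 1 common total with the trimmed mean of M-values (CPM), and a single count was worth 0.202 to 1.144 CPM, so low levels moved in coarse steps. The 2 shallowest libraries outside those features were from unstressed animals, F344 replicate 3 and WKY replicate 3. Red cell precursor markers (13 of 16 in the table), hemoglobin genes among them, summed to 21138 to 42995 CPM, the largest of the marker sums. This is far less than the 3 most abundant features held, so those features lie mostly outside the sum. Skeletal muscle genes summed to 2.80 to 13.4 CPM, with 10 of 11 in the table and 0 deep enough to test.

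All 81 genes together held 4515 counts over the 12 libraries, or 94 to 707 counts per library. That is 0.102% to 0.172% of what the other genes held once the 3 most abundant features were set aside, spread over 36 to 68 detected genes per library. Atp5b, which encodes the catalytic beta subunit of the ATP synthase, alone held 1119 of them, or 24.8%. Complex V held 41.4% of the counts, complex I 21.0%, complex IV 20.8%, complex III 11.9% and complex II 4.98%.

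A gene entered the tests when about 3 libraries reached 3.24 CPM, which is 10 counts in the median library. Of the 81 genes, 12 passed and 69 did not, a share of 14.8% beside 16.0% of all genes. The 12 were Ndufa1 of complex I, Sdha of complex II, Uqcrh and Uqcrc1 of complex III, Cox4i1, Cox6a1, Cox7a2l, Cox7a2 and Cox8a of complex IV, and Atp5b, Atp5a1 and Atp5g2 of complex V. They held 2908 counts, or 64.4%. Near the limit, Cox8a was tested with 73 counts in all, while Atp5h with 78 and Atp5f1 with 73 were not. Ndufa1 reached this unscaled level in 5 F344 and 2 WKY libraries and Cox7a2 in 3 libraries, all F344. The WKY libraries alone would not have let either gene in, so both entered the tests through the strain in which they were higher.

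**Figure D1:**
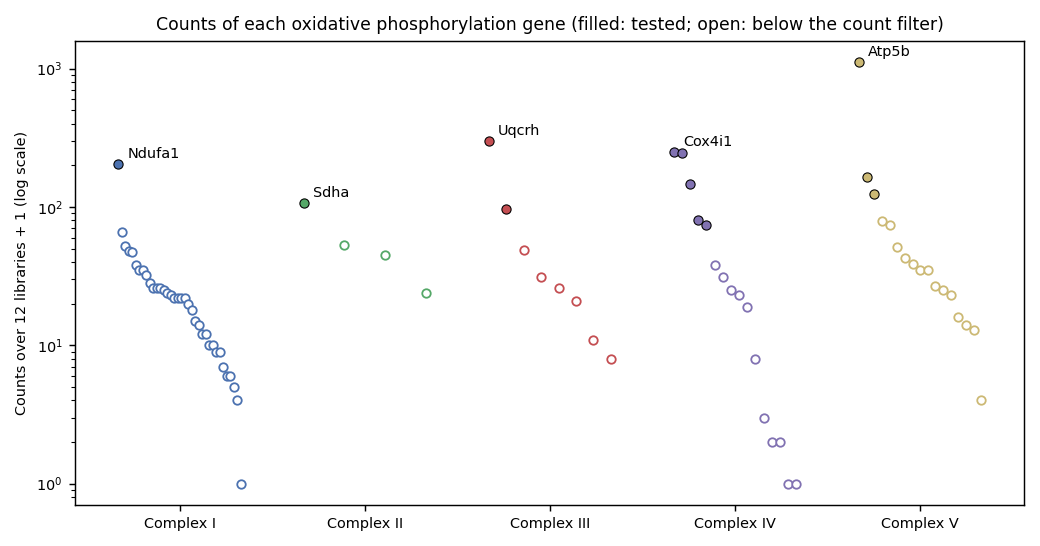
Counts of each of the 81 genes summed over 12 libraries, plus 1, on a log axis, by complex; filled points are the 12 genes tested and open points the 69 below the count filter. Atp5b stands at 1119 counts and the highest untested gene, Atp5h, at 78.

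Among the 69 untested genes, 3 had no count in any library (Ndufs6, Cox6b2 and the pseudogene Cox6c-ps1), which allows a mean level of up to 0.0786 CPM each by counting error alone, from 3 counts over all libraries. In complex I, several nuclear-encoded core subunits, which carry electrons from NADH towards quinone, had few counts in all: Ndufv1 51, Ndufs1 34, Ndufs7 27, Ndufs3 21, Ndufv2 17 and Ndufs8 9. Of its accessory subunits, Ndufa10 led with 65 counts, followed by Ndufv3 with 47 and Ndufb11 with 46. In complex II, Sdhd held 52 counts, Sdhb 44 and Sdhc 23. In complex III, the core subunit Uqcrc2 held 48 counts and the Rieske iron-sulfur protein Uqcrfs1 held 30. In complex IV, Cox7b led with 37 counts, ahead of Cox5a with 30 and Cox6c with 24. In complex V, the stalk subunits Atp5h and Atp5f1 were followed by the rotor subunit Atp5c1 with 50 counts and Atp5e with 42.

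Isoforms of complex IV known from lung, muscle, heart or testis were near 0. Cox4i2, the lung isoform, had 1 count over 12 libraries beside 250 for its counterpart Cox4i1. Cox6a2, the heart and muscle isoform, had 1 count beside 246 for Cox6a1. Cox8b had 7 counts beside 73 for Cox8a, Cox8c had 2 and the testis isoform Cox6b2 had 0; Cox7a1 was not analysed here.

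Ndufa1 was the only one of the 12 tested genes that differed between the strains in the edgeR test averaged over treatments. It encodes a small accessory subunit of complex I that is needed for the complex to assemble, and it lies on the X chromosome. In F344 it stood at 5.24, 6.09 and 5.72 CPM without stress (replicates 1, 2 and 3) and at 8.68, 12.3 and 9.74 CPM after CRS. In WKY it stood at 3.91, 0.328 and 0.387 CPM without stress and at 1.27, 4.36 and 2.96 CPM after CRS. All 6 WKY libraries were below all 6 F344 libraries.

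Group means were 5.68 ± 0.427 CPM in F344 NS and 10.2 ± 1.85 in F344 CRS (SD, n = 3 each). In WKY they were 1.54 ± 2.05 CPM without stress and 2.86 ± 1.55 after CRS. Averaged over treatments, Ndufa1 was 3.39-fold lower in WKY (log2 -1.76, SE 0.375, edgeR adjusted p = 0.00203). This is 1 of 12 tested genes called, beside 104 of all 2781 genes tested (3.74%), of which 45 were lower in WKY (1.62%). Ndufa1 was tested through its F344 levels, as 5 F344 libraries reached the count level and only 2 WKY libraries did. The call and its p-value carry that limit. Groups that do not overlap, with WKY lower, were found for 26 genes in all (0.935%). Over 20 other settings the log2 difference ran from -2.87 to -1.55 with adjusted p from 1.19e-05 to 0.0402; the lowest difference came without WKY NS replicate 1, whose 3.91 CPM rested on 17 counts where the other unstressed WKY libraries had 1 count each.

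After CRS, Ndufa1 was 3.74-fold lower in WKY (log2 -1.90, SE 0.479, edgeR adjusted p = 0.0211). That is 1 of 12 beside 36 of 2781 genes called (1.29%), 18 of them lower (0.647%). The limit of the count filter holds here too. The call was lost by DESeq2 (adjusted p = 0.0582), and in edgeR without F344 CRS replicate 1, 2 or 3 (adjusted p = 0.0655, 0.125 and 0.0765) or without WKY CRS replicate 1 (log2 -1.48, adjusted p = 0.209). Without stress, the difference was log2 -1.62 (SE 0.577, edgeR adjusted p = 0.221), so 0 of 12 passed the test beside 0.683% of all genes. Without WKY NS replicate 1 it was log2 -3.83 and passed (edgeR adjusted p = 0.00408). The strain difference itself did not differ detectably between treatments (interaction log2 -0.28, 95% interval -1.80 to 1.24, edgeR adjusted p = 0.993).

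**Figure D2:**
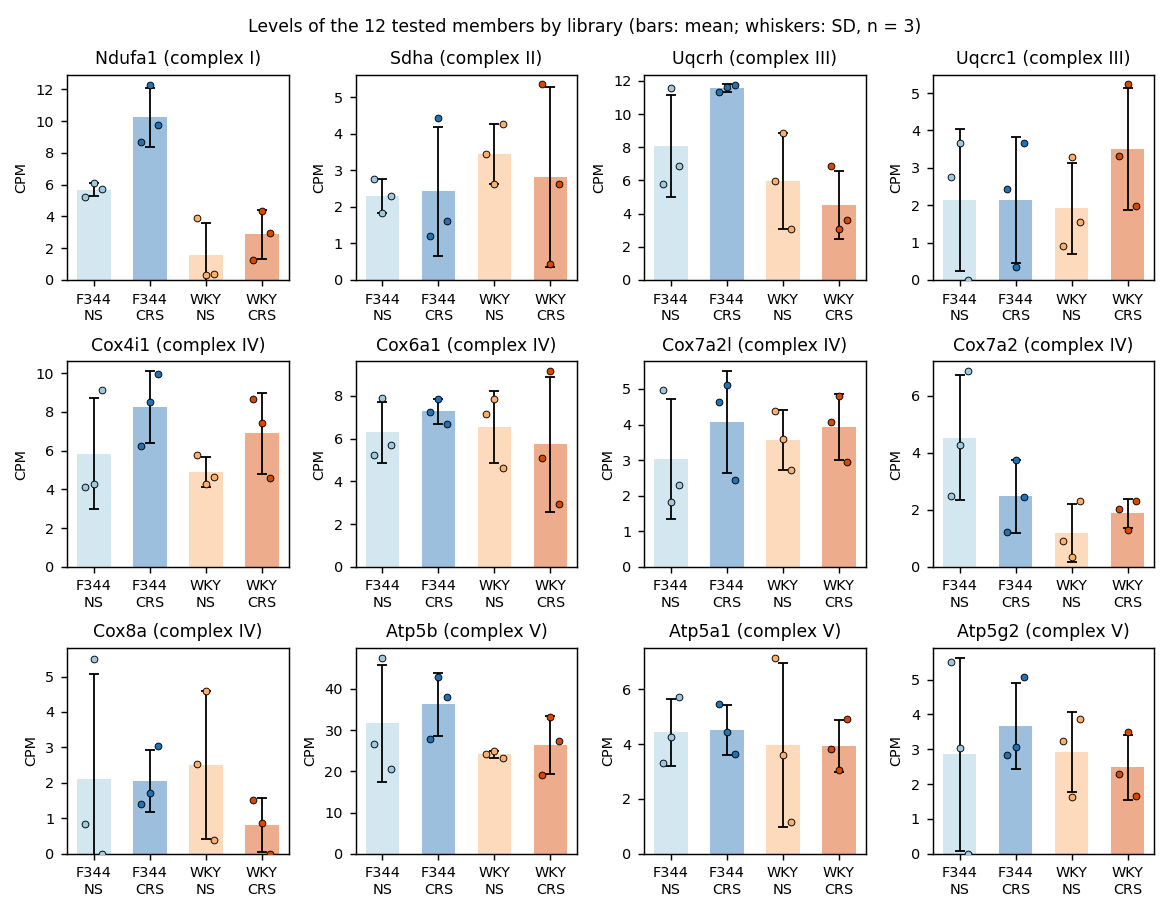
CPM of the 12 tested genes in each library, by group (NS: no stress; CRS: chronic restraint stress); bars are means and whiskers SD of 3 libraries, drawn no lower than 0. In the Ndufa1 panel all WKY points lie below all F344 points, between 0.328 and 4.36 CPM beside 5.24 to 12.3 CPM.

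The promoters of 3 of these genes are printed to show the sequence context of the called gene, of the gene with the next smallest p in the same contrast (Uqcrh) and of the gene with most counts (Atp5b). Each runs 5′ to 3′ from 250 bases before the annotated start to 50 bases from the start on, and comes from RefSeq on the GRCr8 assembly, which is not the build the count files name. They lie at chrX:121293506-121293805 on the minus strand for Ndufa1, at chr5:134790833-134791132 on the minus strand for Uqcrh and at chr7:1099808-1100107 on the plus strand for Atp5b, listed there as Atp5f1b. Capitals mark matches, on either strand, to CCGGAAG, a core bound by ETS factors such as GABPA, or to AANATGGCG, a YY1 motif.
Ndufa1: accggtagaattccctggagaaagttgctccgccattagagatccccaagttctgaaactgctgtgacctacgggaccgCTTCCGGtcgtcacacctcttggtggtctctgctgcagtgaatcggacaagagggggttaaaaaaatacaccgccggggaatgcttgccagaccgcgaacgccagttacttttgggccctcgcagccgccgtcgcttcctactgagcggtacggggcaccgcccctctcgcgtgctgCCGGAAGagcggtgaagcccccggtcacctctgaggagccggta
Uqcrh: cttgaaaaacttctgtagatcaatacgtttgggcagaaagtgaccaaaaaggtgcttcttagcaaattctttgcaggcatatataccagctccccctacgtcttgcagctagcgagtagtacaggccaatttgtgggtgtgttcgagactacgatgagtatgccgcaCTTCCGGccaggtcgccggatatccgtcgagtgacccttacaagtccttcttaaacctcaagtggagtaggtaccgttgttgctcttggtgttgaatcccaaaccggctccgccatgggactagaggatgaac
Atp5b: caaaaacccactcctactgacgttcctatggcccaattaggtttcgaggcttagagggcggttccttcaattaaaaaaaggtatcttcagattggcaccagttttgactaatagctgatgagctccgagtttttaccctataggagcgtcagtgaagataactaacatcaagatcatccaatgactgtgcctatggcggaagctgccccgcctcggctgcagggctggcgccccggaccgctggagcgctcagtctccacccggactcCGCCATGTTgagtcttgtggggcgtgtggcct

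GABPA, YY1 and NRF1 are transcription factors known to bind many respiratory chain promoters. Ndufa1 held CCGGAAG at both -171 and 7 from its start, Uqcrh at -83, and Atp5b held the YY1 motif at 19, counted to the leftmost base of each match. Windows were found for 69 of the 81 genes. Of these, 19 (27.5%) held CCGGAAG beside 8.75% of all 33469 windows, 15 (21.7%) held AANATGGCG beside 3.01%, and 14 (20.3%) held the NRF1 palindrome, which is GCGC and TGCGC with any base between them, beside 4.25%. Any of the 3 motifs, overlaps between them allowed, was found in 40 windows (58.0%) beside 14.3% of all. The median GC content was 56.3% beside 51.7%, so the windows also differ in base composition. The windows of all genes were not limited to protein-coding genes or to genes with a row of counts. The shares are thus a description, and whether they are particular to these genes was not tested.

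Complex I summed over 36 genes to 23.9 ± 4.33 CPM in F344 NS, 29.4 ± 3.04 in F344 CRS, 21.8 ± 0.841 in WKY NS and 23.5 ± 2.05 in WKY CRS. Without Ndufa1 the sums were 18.2 ± 4.46, 19.2 ± 1.19, 20.3 ± 1.504 and 20.7 ± 1.70 CPM in the same order (SD, n = 3). Without Ndufa1 the libraries of the strains overlapped and the WKY means were not lower. With it, they overlapped without stress but not after CRS, at 26.8 to 32.8 CPM in F344 and 21.7 to 25.7 CPM in WKY. Complex III, where Uqcrh holds most counts, also overlapped without stress and not after CRS, at 16.6 to 18.3 CPM in F344 and 9.20 to 15.8 CPM in WKY. The sums of complexes II, IV and V overlapped between strains under both treatments.

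As a share of the counts of all 81 genes, which does not depend on the scaling of a library, Ndufa1 took 4.81% ± 0.694 in F344 NS and 7.36% ± 0.641 in F344 CRS. In WKY it took 1.47% ± 1.93 without stress and 2.59% ± 1.31 after CRS (SD, n = 3). The highest WKY library, at 3.70%, was below the lowest F344 library, at 4.02%. The difference, WKY minus F344, was -4.05 points (2.03% beside 6.08%). Ndufa1 was chosen for its strain difference in the same counts, so the share is a description and no test is given for it.

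**Figure D3:**
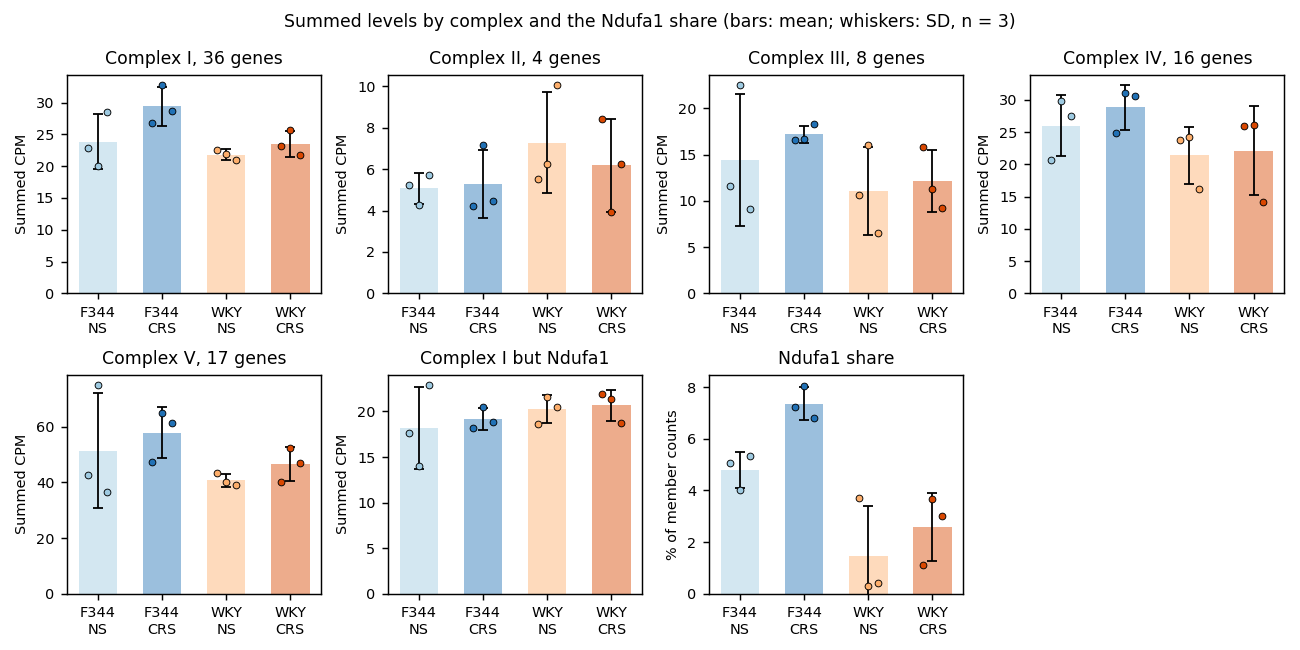
Summed CPM of the genes of each complex, of complex I without Ndufa1, and the Ndufa1 share of all counts of the 81 genes, by library and group; bars are means and whiskers SD of 3 libraries, drawn no lower than 0. Strains separate in the Ndufa1 share panel, at most 3.70% in WKY and at least 4.02% in F344, and overlap in the panel of complex I without Ndufa1.

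The genes next to Ndufa1 on the X chromosome were too shallow to test. Ndufa1 itself had 161 counts in F344 and 43 in WKY, while its nearest neighbour Rnf113a1, 65 bases away in GRCr8, had 3 and 1. Upf3b, a factor of nonsense-mediated decay, had 10 and 18, Nkap 11 and 7, and Akap14 1 and 4. Among the other X-linked genes of complex I and IV, Ndufb11 had 22 counts in F344 and 24 in WKY. Cox7b had 4, 4 and 1 counts in F344 NS, 7, 5 and 5 in F344 CRS, 6, 2 and 2 in WKY NS and 0, 0 and 1 in WKY CRS; it was not tested, and in a fit without the count filter its strain difference after CRS did not pass (log2 -3.33, edgeR adjusted p = 0.366).

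Some lists of blood cell markers moved with strain as well. Monocyte markers (8 of 9 in the table, none at 0) summed to 57.3 to 85.2 CPM in F344 and 113 to 163 CPM in WKY. T cell markers (11 of 13, none at 0) summed to 36.5 to 56.1 CPM in F344 and 24.0 to 35.5 in WKY. Neither sum overlapped between strains. Of the markers tested, averaged over treatments, 3 of 4 for monocytes had a higher fitted level in WKY with 2 called, and 7 of 8 for T cells a lower one with 1 called. Of all genes tested, 49.1% had a higher fitted level in WKY in this contrast and 3.74% were called. Platelet markers had 5 of 6 higher in WKY with 2 called, with sums of 34.3 to 82.3 CPM in F344 and 44.1 to 130 CPM in WKY. Red cell precursor markers had 10 of 12 lower in WKY with 1 called, with sums of 21252 to 42995 CPM in F344 and 21138 to 39039 CPM in WKY. B cell, NK cell and neutrophil markers had 0 called, with 2 of 5, 2 of 2 and 3 of 4 higher in WKY. The sums of these 3 lists overlapped between strains. The part of these cell types in the Ndufa1 difference was not tested. In whole blood, fewer cells of a type and less RNA per cell cannot be told apart.

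Uqcrh, the hinge protein of complex III that helps pass electrons to cytochrome c, came next to Ndufa1. It stood at 5.79, 11.6 and 6.86 CPM in F344 NS, 11.3, 11.6 and 11.8 in F344 CRS, 5.99, 8.85 and 3.10 in WKY NS and 6.88, 3.05 and 3.61 in WKY CRS. The strains overlapped without stress, and all 3 WKY libraries were below all 3 F344 libraries after CRS. After CRS the difference was log2 -1.29 (SE 0.381, edgeR adjusted p = 0.0799), and averaged over treatments it was log2 -0.84 (SE 0.279, edgeR adjusted p = 0.0916), neither past the threshold. It passed averaged over treatments without F344 NS replicate 1 (edgeR adjusted p = 0.0495) or WKY CRS replicate 1 (0.0410), and after CRS without WKY CRS replicate 1 (log2 -1.77, 0.0428).

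Cox7a2, a small subunit of complex IV, stood at 2.48, 4.26 and 6.86 CPM in F344 NS, 1.21, 3.76 and 2.44 in F344 CRS, 0.921, 0.328 and 2.32 in WKY NS and 2.04, 1.31 and 2.30 in WKY CRS. Unstressed WKY libraries were below unstressed F344 libraries without overlap, yet the highest WKY and lowest F344 values were close. The unstressed difference was log2 -1.79 (SE 0.716, edgeR adjusted p = 0.327), and after CRS it was log2 -0.29 with overlap. Such groups, with WKY lower and no overlap, were found for 6.33% of all genes without stress, Ndufa1 and Cox7a2 among them, and for 9.92% after CRS, Ndufa1 and Uqcrh among them. Cox7a2 reached the count level in F344 libraries alone, so its lower level in WKY adds no support.

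The abundant ATP synthase genes showed no strain difference past the threshold. Atp5b stood at 26.8, 47.5 and 20.6 CPM in F344 NS, 27.9, 43.0 and 37.9 in F344 CRS, 24.2, 24.9 and 23.2 in WKY NS and 19.1, 33.1 and 27.3 in WKY CRS. The strains overlapped, with F344 NS replicate 2 the highest library, and the averaged difference was log2 -0.43 (95% interval -0.88 to 0.01, edgeR adjusted p = 0.352). Atp5a1, the alpha subunit that alternates with beta in the catalytic head, ran from 3.31 to 5.72 CPM in F344 and from 1.16 to 7.14 CPM in WKY (log2 -0.06, 95% interval -0.73 to 0.61). Atp5g2, which encodes a copy of the membrane ring subunit c, ran from 0 to 5.52 CPM in F344 and from 1.64 to 3.87 CPM in WKY (log2 -0.47, edgeR adjusted p = 0.631).

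The remaining tested genes overlapped between strains. Sdha, the flavoprotein of succinate dehydrogenase, was the gene with the largest difference towards WKY, at 1.21 to 4.44 CPM in F344 and 0.436 to 5.35 CPM in WKY (log2 0.48, 95% interval -0.39 to 1.35, edgeR adjusted p = 0.670). Uqcrc1, a core protein of complex III, ran from 0 to 3.65 CPM in F344 and from 0.921 to 5.23 CPM in WKY (log2 0.06). Cox6a1 and Cox7a2l had log2 differences of -0.14 and 0.02, Cox4i1 of -0.15, and Cox8a, at 0 CPM in 1 library of each strain, of -0.49.

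Averaged over treatments, 9 of the 12 tested genes had a lower fitted level in WKY, with a median log2 difference of -0.29 beside -0.01 over all genes tested. Without Ndufa1 it was 8 of 11, with a median of -0.15. At an unadjusted p under 0.05 there were 3 of 12 (Ndufa1, Uqcrh and Cox7a2), beside 14.7% of all genes. Since Cox7a2 and Ndufa1 were tested through their F344 levels, these counts are descriptions. For the strain difference without stress the count was 2 of 12 beside 9.31%, and after CRS 2 of 12 beside 11%. With no count filter, the median over the 78 genes with a count was 0.02.

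**Figure D4:**
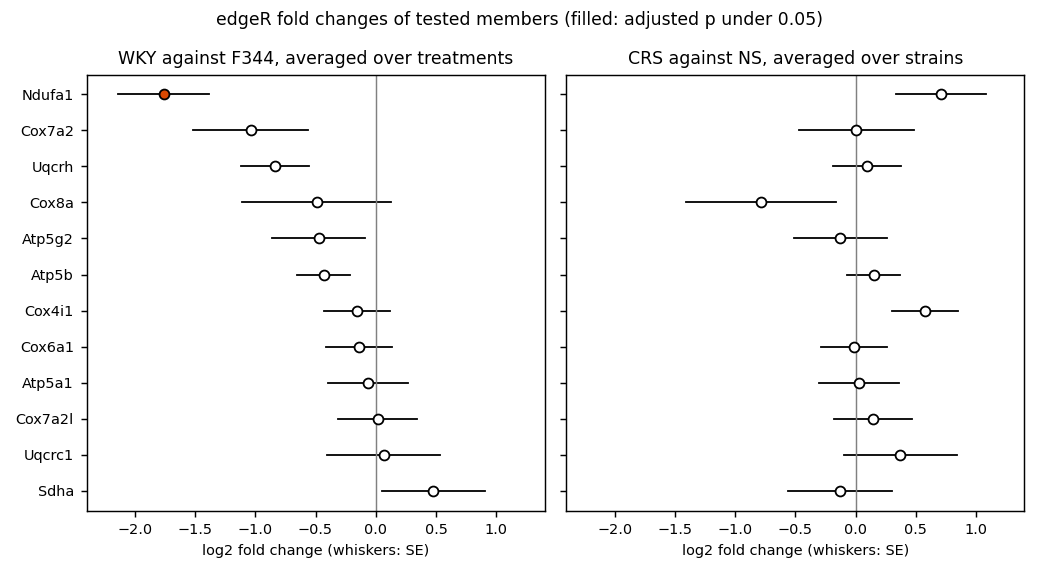
Log2 fold changes of the 12 tested genes from the edgeR fit, WKY against F344 averaged over treatments (left) and CRS against NS averaged over strains (right); whiskers are SE, and the filled point has an adjusted p under 0.05. Ndufa1 at -1.76 on the left is the only filled point.

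No tested gene passed the edgeR test for restraint in either strain. In F344, 0 of 12 passed beside 0% of all genes, and 0 of 12 had an unadjusted p under 0.05 beside 4.67%. In WKY, 0 of 12 passed beside 0%, and 0 of 12 beside 5.79% had an unadjusted p under 0.05. Averaged over strains, 0 of 12 passed beside 0.0360% (1 gene), and 1 of 12 beside 7.08% had an unadjusted p under 0.05. DESeq2 also called 0 of the 12 in each of these comparisons.

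That 1 gene was Cox4i1, the subunit of complex IV at which ATP is known to act on the enzyme. It stood at 4.14, 4.26 and 9.15 CPM in F344 NS, 6.26, 8.53 and 9.94 in F344 CRS, 5.76, 4.26 and 4.64 in WKY NS and 8.66, 7.41 and 4.60 in WKY CRS. Groups overlapped in both strains. The averaged difference was log2 0.58 (SE 0.274, 95% interval 0.02 to 1.13), with an unadjusted p of 0.0419 and an adjusted p of 0.681 by edgeR.

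Ndufa1 had the smallest p of the 12 genes for restraint in F344. All 3 CRS libraries, at 8.68 CPM and above, exceeded all 3 NS libraries, at 6.09 CPM and below, and such groups, with CRS higher, were found for 6.22% of all genes. The fitted difference was log2 0.85 (SE 0.458, 95% interval -0.08 to 1.78, edgeR adjusted p = 0.918). In WKY it was log2 0.57 (SE 0.594, edgeR adjusted p = 0.975) with overlapping groups, and without WKY NS replicate 1 it was 2.78, still not past the threshold.

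Other genes at the edges of the restraint comparison rested on few counts. Cox8a, a small subunit of complex IV, stood at 2.53, 4.59 and 0.387 CPM in WKY NS and at 1.53, 0.872 and 0 CPM in WKY CRS (log2 -1.56, SE 0.919, edgeR adjusted p = 0.945). Uqcrc1 stood at 0.921, 3.28 and 1.55 CPM in WKY NS and 3.31, 5.23 and 1.97 CPM in WKY CRS (log2 0.87, SE 0.644, edgeR adjusted p = 0.975). Cox7a2 differed in F344 by log2 -0.74 and in WKY by 0.75, with intervals that cover 0 in both. For Atp5b, the deepest gene, the averaged difference was log2 0.15 with a 95% interval of -0.29 to 0.59, so a change of that gene beyond 1 log2 unit in either direction lies outside the interval.

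The median log2 difference of the 12 genes under CRS was 0.16 in F344 and 0.00 in WKY, beside 0.01 and 0.02 over all genes tested. The 4 group sums over all 81 genes were 121 ± 26.8 CPM in F344 NS, 139 ± 16.9 in F344 CRS, 102 ± 8.35 in WKY NS and 110 ± 10.98 in WKY CRS (SD, n = 3). F344 NS libraries ran from 103 to 152 CPM and F344 CRS libraries from 120 to 153 CPM, so restrained and unstressed libraries overlapped. Between strains the sums did not overlap after CRS, though narrowly, with the lowest F344 library at 119.9 CPM and the highest WKY library at 119.5 CPM, and without Ndufa1 they overlapped. The share of counts outside the 3 most abundant features was 0.159% to 0.172% in F344 CRS and 0.102% to 0.140% in WKY CRS, also without overlap. Some marker sums did not overlap between NS and CRS. For platelets, 9 of 12 markers were in the table, with Gp1bb at 0. In F344 their sum ran from 34.3 to 55.7 CPM without stress and from 71.9 to 82.3 after CRS. Monocyte markers in F344 ran from 57.3 to 70.0 and 76.8 to 85.2 CPM in the same order. Red cell precursor markers in WKY ran from 21138 to 27030 and 35938 to 39039 CPM. Skeletal muscle genes in WKY ran from 5.76 to 7.54 and 2.80 to 4.93 CPM. Of the tested genes on these lists, 0 were called for CRS in either strain, beside 0% of all genes. The part of these cells in the sums and shares above was not tested.

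The CRS response did not differ between strains for any of the 12 genes past the threshold, beside 0% of all genes, and 0 of 12 had an unadjusted p under 0.05 beside 3.81%. Uqcrh had the smallest p, with a response log2 0.91 lower in WKY than in F344 (interaction log2 -0.91, SE 0.559, edgeR adjusted p = 0.993). Cox7a2 had the largest interaction towards WKY at log2 1.496 (SE 0.955, edgeR adjusted p = 0.993). By DESeq2 0 of 12 passed as well.

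Other genes of energy metabolism gave 0 calls in any of the 7 comparisons, beside 0% to 3.74% of all genes tested. Of 39 assembly factors in the table only Pet100, which helps to assemble complex IV, was deep enough to test (WKY against F344 log2 -1.01, SE 0.432, edgeR adjusted p = 0.223). Of 17 electron and metabolite carriers, the inhibitor of the ATP synthase Atpif1 and the ADP/ATP carrier Slc25a5 were tested; Atpif1 differed by log2 0.63 under CRS averaged over strains (SE 0.275, edgeR adjusted p = 0.659). Of 17 citric acid cycle genes 5 were tested, among them citrate synthase Cs (WKY against F344 log2 0.84, SE 0.437, edgeR adjusted p = 0.345) and Pdha1 of pyruvate dehydrogenase (CRS log2 -0.80, edgeR adjusted p = 0.860).

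Glycolysis was the better measured list, with 11 of 19 genes tested. There 10 of 11 had a higher fitted level in WKY, with a median of 0.20 beside -0.01 over all genes; the exception was Hk1, a hexokinase that opens the pathway (log2 -0.96, SE 0.326, edgeR adjusted p = 0.101), and Gpi, the isomerase after it, had the smallest p of the others (log2 0.66, edgeR adjusted p = 0.227). Gapdh had the smallest p under CRS (log2 0.71, SE 0.230, edgeR adjusted p = 0.495). Of 15 regulators of mitochondrial biogenesis 4 were tested: Nrf1 (log2 -0.32), Yy1 (-0.10), Pprc1 (-0.24) and Polg (0.00) in WKY against F344. None of the 69 mitochondrial ribosomal protein genes was deep enough to test.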

How the data were processed

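The deposited files hold whole-number read counts per gene, not normalised, per the file headers and values. Build rn6 and the tools Cufflinks 2.2.1, TopHat2 2.1.0 and cutadapt 1.14 are named, with no role, in the submitters' processing notes; which program counted the reads, with what annotation and strand setting, is not given in the sources used here. The 5 rows that name no gene held 80.9% to 86.6% of a library's counts, reads ambiguous between features alone 78.3% to 83.6%, and stayed out of library sizes and tests. Genes that overlap or resemble others may lose reads to that share, which was not tested. In GRCr8, 30 of the 81 genes, 6 of them tested (Atp5b, Cox7a2, Cox8a, Sdha, Cox7a2l and Atp5g2), overlap the span of another gene on either strand. Whether the annotation used for counting holds the same overlaps is not known.

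For the tests of the counts, edgeR 4.0.16 was run in R 4.3.3 (filterByExpr with minimum count 10, TMM, glmQLFit, glmQLFTest) in 1 fit of the 4 group means, without covariates, for 7 contrasts; p-values were Benjamini-Hochberg adjusted over 2781 genes and called under 0.05. Standard errors come from the fitted weights and the moderated dispersion, and 95% intervals from them. The pipeline was tested on simulated data. Alternatives were DESeq2 1.42.0, its size factors, limma-voom 3.58.1 with quality weights, other count filters, libraries without the 3 most abundant features, the compared groups alone, a replicate block and libraries left out. The members and lists were chosen with earlier results of these data known. Values are given for each gene called, the 2 of smallest p per direction and contrast, and the 2 of highest CPM per complex, without lengths. The counts of 1 untested gene are not reported here. All 81 genes matched RefSeq names, 17 of them by an older symbol.

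Libraries of a group differed beyond sampling noise (chi-square per degree of freedom 2.54 to 16.9 over 12 pairs), so no pair was counted as copies of 1 library; this does not show that they come from separate animals. Same-numbered libraries correlated at -0.0901 to 0.204 after removal of group means, with 4 of 18 pairs over 0.1. For 9 of 12 libraries the best match had the same number, so whether numbers mark a pairing or batch is not settled. The labels state no pairing, so the main fit left the numbers out and a replicate block was run as an alternative.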

Additional observations from a re-analysis of the deposited data

How the results depend on the processing

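Ndufa1 kept its call averaged over treatments in each of 20 other settings. Over the 12 fits that leave out 1 library, the number of tested genes called ran from 0 to 1 for WKY against F344 without stress, from 0 to 1 after CRS and from 1 to 2 averaged over treatments; DESeq2 called 0 after CRS, and the cause was not tested. For the restraint comparisons and their difference between strains it was 0 in every setting run.

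The replicate block left the number of tested genes called as it was in each of the 7 comparisons (Ndufa1 averaged over treatments log2 -1.76, adjusted p = 0.00226; after CRS adjusted p = 0.0221). Libraries matched best with their own number in 9 of 12 cases, a hint from the data and not the design.

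Of 30 gene and contrast pairs, 8 changed sign in some setting, none of them called and the cause not tested. Under limma-voom and with no filter, Uqcrc1 in F344 under CRS went to log2 0.71 and 0.21, and Atp5g2 under CRS averaged over strains to 0.479 and 0.0366. Over the fits that leave out 1 library, the range was -0.68 to 0.27 for the former and -0.28 to 0.33 for the latter. It was -0.84 to 0.0111 for Uqcrh in WKY under CRS, -1.32 to 0.0491 for Cox8a under CRS averaged over strains and -0.40 to 1.95 for Cox8a between unstressed strains. It was -0.43 to 1.08 for Sdha between strains after CRS, -0.27 to 0.35 for Uqcrc1 between strains averaged over treatments and -0.70 to 1.93 for Ndufa1 in the interaction of strain and CRS. By depth, 69 of 81 genes were not tested, and with no filter 0 of the 66 of them with counts were called in any contrast.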
